A study of Mus musculus with 6 samples.

Results

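Heat shock proteins are molecular chaperones, and 10 genes encoding cytosolic and mitochondrial members were examined in coronary endothelial cells (ECs): *Hspa1a*, *Hspa1b*, *Hspa8*, *Hsp90aa1*, *Hsp90ab1*, *Hspb1*, *Hsph1*, *Dnajb1*, *Hspd1* and *Hspe1*. They were chosen by symbol from the 55416 genes of the count table. RNA-Seq was performed on mGFP+ cells sorted from hearts at E15.5, with 3 libraries from *ControlΔEC* embryos (Pdgfb(CreERT2/+); Wt1(+/+); R26(mTmG/+)) and 3 from *Wt1KOΔEC* embryos (Pdgfb(CreERT2/+); Wt1(loxP/loxP); R26(mTmG/+)). Both genotypes therefore carried the *Pdgfb*-driven, tamoxifen-inducible Cre and the reporter that turns from membrane Tomato to membrane GFP after recombination, and both received tamoxifen at 75 mg/kg through the mother between E11.5 and E13.5. The comparison asks how the ECs differ once *Wt1*, a zinc-finger transcription factor gene, is deleted while the coronary plexus forms. The sort follows recombination of the reporter and not of *Wt1*, and the controls carry no floxed *Wt1* allele.

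Chaperones of the HSP70 class bind exposed hydrophobic stretches of unfolded proteins in cycles of ATP hydrolysis. J-domain proteins start that cycle and HSP110 proteins reset it. HSP90 dimers act later, on nearly folded clients such as kinases and steroid receptors, small heat shock proteins hold unfolded proteins without ATP, and the HSP60 and HSP10 chaperonin encloses proteins inside mitochondria. Under proteotoxic stress the heat shock factor HSF1 binds heat shock elements, which are inverted repeats built from GAA, and raises transcription of the inducible members. In ECs, HSP90 is known as a partner of endothelial nitric oxide synthase.

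The stretches before the transcription start of 4 members are shown because they carry the heat shock elements in capitals, and because those of *Hspa1a* and *Hspa1b* are almost the same. The sequences are from RefSeq, 5′ to 3′ on the strand of the gene, in build GRCm39: *Hspa1a* chr17:35191133-35191382 (minus strand), *Hspa1b* chr17:35178215-35178464 (minus), *Hspb1* chr5:135916623-135916712 (plus) and *Hspe1* chr1:55127187-55127259 (plus).
Hspa1a: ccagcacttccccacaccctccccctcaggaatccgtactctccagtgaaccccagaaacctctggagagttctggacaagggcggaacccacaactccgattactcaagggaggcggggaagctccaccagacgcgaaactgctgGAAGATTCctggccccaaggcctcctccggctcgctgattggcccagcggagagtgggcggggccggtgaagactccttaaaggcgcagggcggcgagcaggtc
Hspa1b: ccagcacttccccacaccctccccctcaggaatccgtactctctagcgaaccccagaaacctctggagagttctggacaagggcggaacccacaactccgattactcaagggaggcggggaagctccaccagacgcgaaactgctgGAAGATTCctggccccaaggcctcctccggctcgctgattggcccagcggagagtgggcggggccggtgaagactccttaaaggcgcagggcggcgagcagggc
Hspb1: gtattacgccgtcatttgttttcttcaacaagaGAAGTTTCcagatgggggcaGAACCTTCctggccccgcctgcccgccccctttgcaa
Hspe1: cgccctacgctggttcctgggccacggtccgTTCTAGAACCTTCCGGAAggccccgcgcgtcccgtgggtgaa

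The motif searched was GAANNTTC or TTCNNGAA, each its own reverse complement, in windows from 250 bases before to 50 bases after the RefSeq start. Windows were held for 7 of the 10 members, not for *Hspa8*, *Hsp90aa1* and *Hsp90ab1*. These 7 genes have 10 windows, some of them overlapping, since *Hsph1*, *Dnajb1* and *Hspd1* have 2 starts each. The motif lay in 7 of the 10 windows, against 15.1% of 32851 mouse promoter windows of 300 bases, and 6 of the 7 genes had it in at least 1 window. The second window of *Hspd1* held none. In 4 windows, of *Hsph1*, *Hspd1* and *Hspe1*, there were 3 adjoining units, as in 0.603% of all windows. These windows are not separate stretches. The 2 windows of *Hsph1* hold the same units, which lie after its 2 starts, from bases 16 and 37. The units of *Hspd1* and *Hspe1* are the same bases on opposite strands. The 3 elements of *Hspe1* overlap one another in the capitals above, and begin 89, 84 and 79 bases before its start. *Hspd1* shares them, since the pair is transcribed in opposite directions from starts 216 bases apart. The element of *Hspa1a* and *Hspa1b* is GAAGATTC in both, 104 bases before the start, and their stretches differ at 3 of 250 bases. *Hspb1* has 2 elements. No match was found for *Dnajb1*, which says only that these letters are not in its windows.

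Total expected counts were 26037324 to 44779020 per library. Values are expected counts scaled to library size by the trimmed mean of M values (CPM), and 3 counts, the limit that a count of 0 allows, corresponded to 0.0608 to 0.119 CPM, for counting error only. *Wt1* was 145, 110 and 149 CPM in *ControlΔEC* and 14.0, 18.4 and 21.3 CPM in *Wt1KOΔEC*, a log2 fold change (*Wt1KOΔEC* over *ControlΔEC*) of -2.91 ± 0.22 (SE, n = 3 and 3), with an adjusted p of 0.00319 by edgeR. Summed CPM of 9 endothelial markers was 5466 to 7114 in *ControlΔEC* and 5993 to 6777 in *Wt1KOΔEC*. The 18S rRNA gene *Rn18s* took 13.2 to 15.3% of counts in *ControlΔEC* and 21.1 to 26.5% in *Wt1KOΔEC*, and mitochondrially encoded genes took 5.21 to 6.61% and 1.68 to 4.57%. The libraries of each genotype also carry identifiers of their own series, so genotype and library series cannot be told apart. In bulk libraries, fewer cells with a transcript and less of it per cell cannot be told apart either.

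All 10 heat shock genes had higher fitted levels in *Wt1KOΔEC*, with log2 fold changes from 0.20 to 1.55 and a median of 0.71, beside -0.03 over the 16296 genes tested. None was called by edgeR's quasi-likelihood test, where called means a Benjamini-Hochberg adjusted p below 0.05 and an absolute log2 fold change above 0.58. This rule called 12 genes, 0.0736% of those tested. Adjusted p-values of the members ran from 0.11 to 0.6 in edgeR. At an unadjusted p below 0.05, 8 of 10 were higher, against 5.96% of all genes, and in 7 of 10 every *Wt1KOΔEC* library exceeded every *ControlΔEC* library, against 10.3% of all genes. The 8 became 4 without *Wt1KOΔEC* replicate 3, where 4.13% of all genes were higher by that measure, and 5 without *ControlΔEC* replicate 1, where 6.19% were. DESeq2 run on the genes kept called 6 members (*Hspa1a*, *Hspa8*, *Hspb1*, *Hsph1*, *Dnajb1* and *Hspe1*), where 1.7% of genes were called higher, and limma-voom called 0. DESeq2 on all genes, an alternative chosen after seeing the data, called 4 members (*Hspa8*, *Hspb1*, *Dnajb1* and *Hspe1*). That run used the study's own tool without the count filter, and it called 759 genes in either direction. At an unadjusted p below 0.05 it had 7 members higher, against 5.21% of all genes. For single genes, the 2-sided exact permutation test cannot go below p = 0.1 with 3 against 3, the value reached by each of the 7 without overlap.

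**Figure D1:**
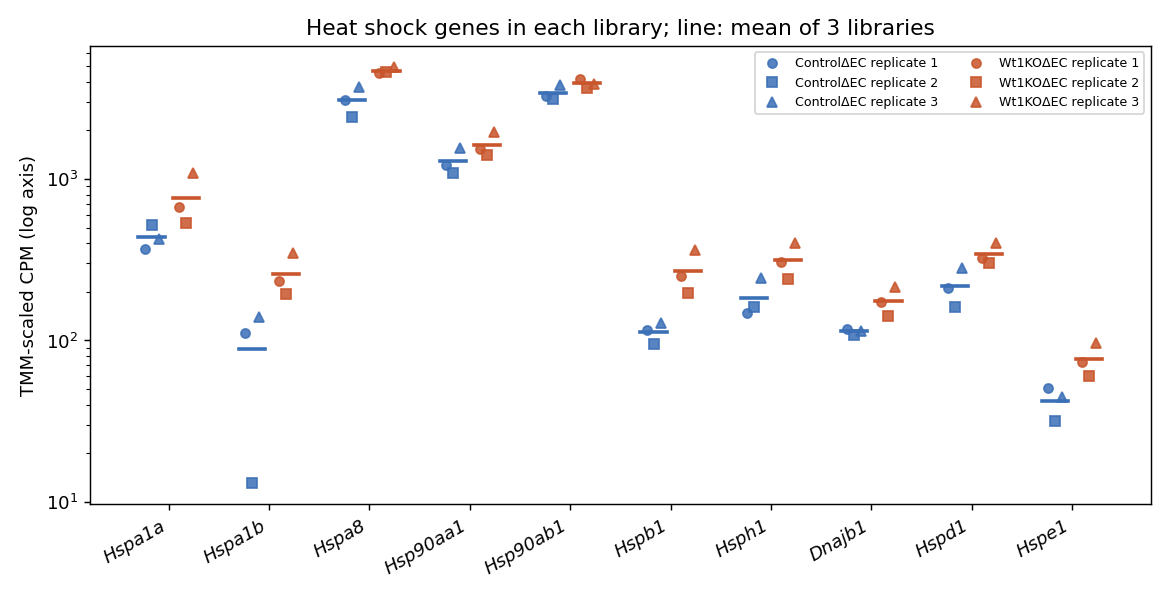
TMM-scaled CPM on a log axis for the 10 heat shock genes, with 1 symbol for each of the 3 *ControlΔEC* (blue) and 3 *Wt1KOΔEC* (orange) libraries and a line at each mean. *Wt1KOΔEC* replicate 3 is the highest of the 6 libraries for 9 of 10 genes, and *Hspa1b* in *ControlΔEC* replicate 2 lies far below the other points.

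The libraries kept much the same order from gene to gene, as the plot of levels by library shows. *Wt1KOΔEC* replicate 3 was the highest of 6 for 9 members and *Wt1KOΔEC* replicate 1 for *Hsp90ab1*. *ControlΔEC* replicate 2 was the lowest for 8 members and *ControlΔEC* replicate 1 for *Hspa1a* and *Hsph1*. The mean over members of log2 CPM centred on each gene was -0.34, -0.79 and -0.10 in *ControlΔEC* and 0.36, 0.14 and 0.72 in *Wt1KOΔEC*.

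The stress-inducible HSP70 is encoded by *Hspa1a* and *Hspa1b*, neighbouring genes on chromosome 17. *Hspa1a* (ENSMUSG00000091971, chr17:35188166-35191132, minus strand) was 367, 522 and 422 CPM in *ControlΔEC* and 673, 529.9 and 1088 CPM in *Wt1KOΔEC*. The groups are parted only narrowly, between *ControlΔEC* replicate 2 and *Wt1KOΔEC* replicate 2. The log2 fold change was 0.81 ± 0.26, with an adjusted p of 0.261 in edgeR and 0.0352 in DESeq2 on the genes kept, and it was 0.46 without *Wt1KOΔEC* replicate 3. *Hspa1b* (ENSMUSG00000090877, chr17:35175412-35178214, minus strand) was 112, 13.1 and 139.9 CPM in *ControlΔEC* and 235, 194 and 347 CPM in *Wt1KOΔEC*, a log2 fold change of 1.55 ± 0.66 (edgeR adjusted p = 0.362). That value leaned on *ControlΔEC* replicate 2, and was 1.04 without it.

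The coding sequences of *Hspa1a* and *Hspa1b* are 99.4% identical, and 58.6% of the windows of 51 bases, the read length, in the *Hspa1a* transcript also lie in *Hspa1b*, with 0% of those in its 3′UTR. Counts of the pair could be divided between them unevenly by the counting. *Hspa1b* held 23.3, 2.44 and 24.9% of the summed CPM in *ControlΔEC* and 25.9, 26.8 and 24.2% in *Wt1KOΔEC*, so that replicate 2 of *ControlΔEC* alone stood apart. The sum of the pair was 478, 535 and 562 CPM in *ControlΔEC* and 908, 724 and 1435 CPM in *Wt1KOΔEC*. On this scale the control libraries lay close together and all *Wt1KOΔEC* libraries were above them, by a log2 fold change of 0.96 ± 0.24 (edgeR adjusted p = 0.192).

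**Figure D2:**
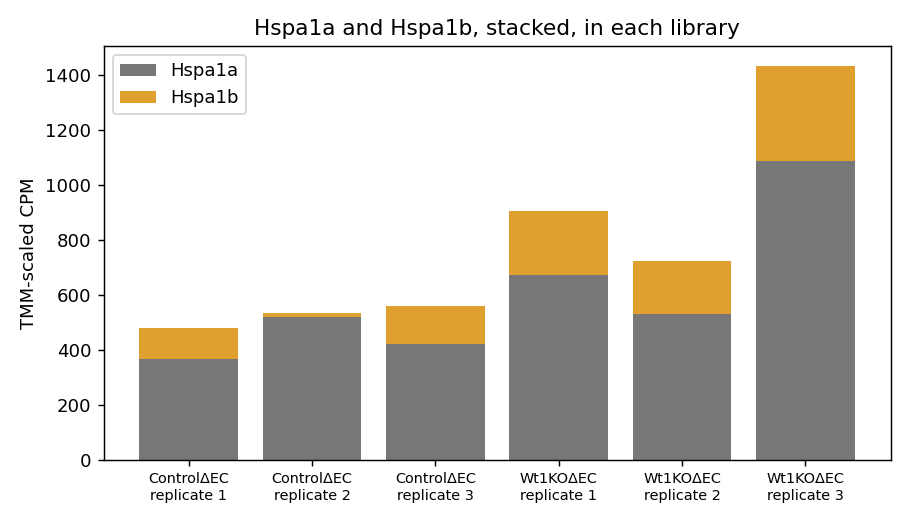
TMM-scaled CPM of *Hspa1a* (grey) and *Hspa1b* (yellow), stacked, in each of the 6 libraries. The *Hspa1b* share is 2.44% of the stack in *ControlΔEC* replicate 2 and 23.3 to 26.8% in the other libraries, while the height of the stack separates the genotypes.

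*Hspa8* (ENSMUSG00000015656, chr9:40711630-40731039, plus strand) encodes HSC70, the HSP70 made without stress. It was 3093, 2426 and 3705 CPM in *ControlΔEC* and 4526, 4565 and 4940 CPM in *Wt1KOΔEC*. The groups did not overlap, and the log2 fold change was 0.61 ± 0.16 (adjusted p = 0.209 in edgeR and 0.0139 in DESeq2 on the genes kept). The ratio of *Hspa1a* plus *Hspa1b* to *Hspa8* overlapped between genotypes, at 0.176 ± 0.039 (SD, n = 3) in *ControlΔEC* and 0.217 ± 0.067 in *Wt1KOΔEC*.

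*Dnajb1* and *Hsph1* encode partners of HSP70, the J-domain protein HSP40 and the HSP110 nucleotide exchange factor. *Dnajb1* (ENSMUSG00000005483, chr8:84334811-84339820, plus strand) was 118, 109 and 115 CPM in *ControlΔEC* and 172, 141 and 215 CPM in *Wt1KOΔEC*. Its control libraries had the smallest SD of any member, 4.52 CPM, and all lay below the *Wt1KOΔEC* libraries (log2 fold change 0.63 ± 0.18, adjusted p = 0.22 in edgeR and 0.0301 in DESeq2 on the genes kept). *Hsph1* (ENSMUSG00000029657, chr5:149537636-149560156, minus strand) was 148, 160.1 and 245 CPM in *ControlΔEC* and 305, 239 and 404 CPM in *Wt1KOΔEC*. *ControlΔEC* replicate 3 exceeded *Wt1KOΔEC* replicate 2, so the groups overlapped, and the log2 fold change was 0.78 ± 0.25 (adjusted p = 0.259 in edgeR and 0.04 in DESeq2 on the genes kept).

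*Hspb1* (ENSMUSG00000004951, chr5:135916760-135918417, plus strand) encodes the small heat shock protein HSP27, which is also known to act on actin filaments. It was 117, 95.6 and 128 CPM in *ControlΔEC* and 250.6, 197 and 364 CPM in *Wt1KOΔEC*. The groups were well apart, and with a log2 fold change of 1.26 ± 0.24 it had the smallest adjusted p of the 10 in edgeR, 0.11. DESeq2 on the genes kept gave it an adjusted p of 2.44e-05. Its log2 fold change was 0.98 without *Wt1KOΔEC* replicate 3, the lowest of its alternatives.

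*Hspd1* and *Hspe1* encode HSP60 and HSP10, the 2 parts of the mitochondrial chaperonin. *Hspd1* (ENSMUSG00000025980, chr1:55116989-55171038, minus strand) was 212, 160.3 and 282 CPM in *ControlΔEC* and 325, 301 and 398 CPM in *Wt1KOΔEC* (log2 fold change 0.65 ± 0.22, edgeR adjusted p = 0.274). *Hspe1* (ENSMUSG00000073676, chr1:55127260-55130476, plus strand) was 50.8, 31.6 and 44.6 CPM in *ControlΔEC* and 73.1, 60.6 and 96.5 CPM in *Wt1KOΔEC* (log2 fold change 0.86 ± 0.24, edgeR adjusted p = 0.22). Neither gene overlapped between the genotypes, and their ratio did, at 5.19 ± 1.08 (SD, n = 3) and 4.52 ± 0.42. *Hspd1-ps3*, a named pseudogene copy of *Hspd1*, had means of 3.42 CPM in *ControlΔEC* and 3.78 CPM in *Wt1KOΔEC*, and with the named copies of *Hspd1* added its log2 fold change was 0.64. The exons of *Hspd1* and *Hspe1* overlap by 143 bases on opposite strands, and the library kit does not mark strand, so reads there cannot be told apart.

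The HSP90 genes had the smallest log2 fold changes of the 10. *Hsp90aa1* (ENSMUSG00000021270, chr12:110656842-110669166, minus strand), the inducible form, was 1216, 1086 and 1554 CPM in *ControlΔEC* and 1520, 1407 and 1944 CPM in *Wt1KOΔEC* (log2 fold change 0.34 ± 0.18, edgeR adjusted p = 0.496). Without *Wt1KOΔEC* replicate 3 its log2 fold change was 0.19. *Hsp90ab1* (ENSMUSG00000023944, chr17:45878552-45891949, minus strand), the constitutive form, was 3254, 3118 and 3802 CPM in *ControlΔEC* and 4169, 3670 and 3839 CPM in *Wt1KOΔEC* (log2 fold change 0.20 ± 0.13, edgeR adjusted p = 0.6). Both overlapped between genotypes, as did the ratio of the first to the second, 0.377 ± 0.030 (SD, n = 3) and 0.418 ± 0.077. Scaled by library size only, which moved the median of all genes by -0.15 on the log2 scale, the log2 fold change of *Hsp90ab1* was 0.05.

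**Figure D3:**
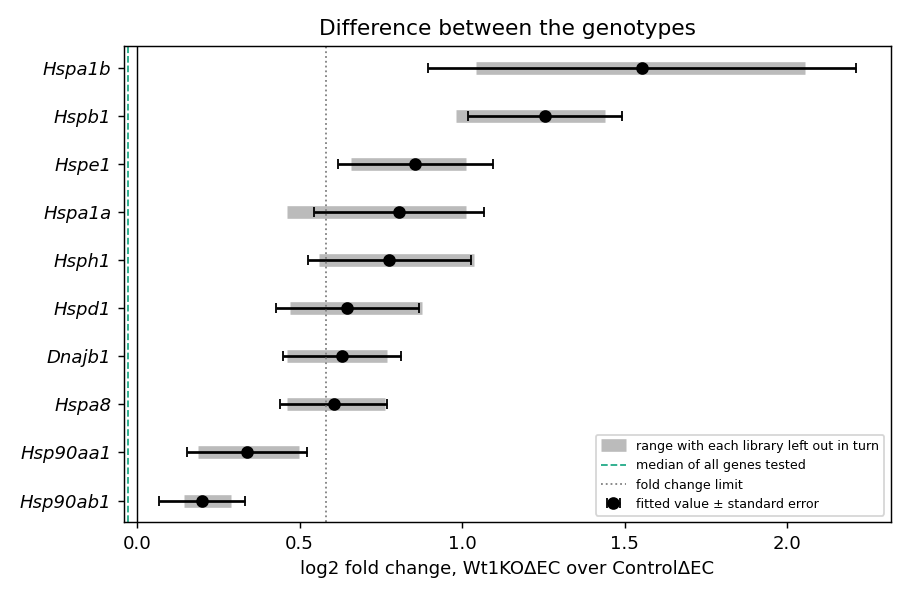
Log2 fold change of each heat shock gene, *Wt1KOΔEC* over *ControlΔEC*, from edgeR (black points with standard error), with the range obtained by leaving out each of the 6 libraries in turn (grey bars). All ranges are above 0, from 0.14 for the lowest of *Hsp90ab1* to 2.06 for the highest of *Hspa1b*, and the dashed line marks the median of all genes tested, -0.03.

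Summed over the 10 genes, CPM was 8686, 7721 and 10435 in *ControlΔEC* and 12249, 11304 and 13635 in *Wt1KOΔEC*, a ratio of means of 1.39. As an unscaled share of all counts the sum was 0.942 ± 0.142% (SD, n = 3) and 1.18 ± 0.13%, and the libraries overlapped. With *Rn18s* and the mitochondrially encoded genes removed, an alternative chosen after seeing the data, the median log2 fold change of the members was 0.71. *Hspa8* and *Hsp90ab1* made up 64.4 to 73.1% of the summed CPM.

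Levels between genes were compared as CPM per kilobase of annotated exons. *Hsp90ab1* led in *ControlΔEC* with 628 ± 67 CPM per kilobase (SD, n = 3), followed by *Hspa8* with 354 ± 74, *Hsp90aa1* with 279 ± 52, *Hspa1a* with 147 ± 26 and *Hspb1* with 109 ± 16. *Hspd1*, *Hspa1b*, *Dnajb1*, *Hspe1* and *Hsph1* followed, from 58.5 down to 16.6 CPM per kilobase. *Hspa8* and *Hsp90aa1* overlapped in this order, as did *Hspd1* with *Hspa1b*, *Hspa1b* with *Dnajb1*, and *Hspe1* with *Hsph1*. Per kilobase of the canonical transcript, a length chosen after seeing the data, *Hspa8* and *Hsp90ab1* were level at 1286 ± 268 and 1256 ± 134. The order lower down changed too. *Hspe1*, at 54.7 ± 12.7, then lay above *Dnajb1*, at 32.2 ± 1.3, without overlap, and *Hspa1a* overlapped *Hspb1*.

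The rest of the chaperone network was read from 8 lists, of which 100 of 106 genes were tested. No gene of them was called by edgeR. At an unadjusted p below 0.05, 20 were higher and 2 lower, beside 5.96% and 7.12% of all genes, and the median log2 fold change was 0.24. Of 22 endoplasmic reticulum (ER) chaperones and unfolded protein response genes, 11 were higher and 1 lower by that measure, with a median of 0.42. Among them, *Hspa5*, the ER HSP70, averaged 1327 CPM in *ControlΔEC* and 1931 CPM in *Wt1KOΔEC* (log2 fold change 0.54 ± 0.16, edgeR adjusted p = 0.241), and *Herpud1*, of ER-associated degradation, 108 and 195 CPM (0.85 ± 0.21, edgeR adjusted p = 0.183).

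Of the 16 other heat-inducible genes, 2 were higher by that measure, *Fkbp4* and *Ahsa1*, both co-chaperones of HSP90, with log2 fold changes of 0.94 ± 0.18 and 0.53 ± 0.16. Of the 23 other cytosolic HSP70 and J-domain genes, 3 were higher and 1 lower. *Hspbp1*, an HSP70 nucleotide exchange factor, averaged 30.7 and 54.0 CPM (log2 fold change 0.81 ± 0.18, edgeR adjusted p = 0.146). Among the 12 HSP90 co-chaperones 2 were higher (*Nudc* and *Pih1d1*), and among the 12 mitochondrial chaperones 1 (*Hscb*). Among the 8 subunits of the CCT chaperonin 1 was higher (*Cct5*), and among the 4 tested genes of the small heat shock list 0. Beside 5.96% of all genes, counts this small are not read as a result about any of these lists. Of the 6 genes in the heat shock factor list 3 were tested, and none of them parted by genotype. *Hsf1* was 32.4, 67.2 and 43.3 CPM in *ControlΔEC* and 47.6, 36.2 and 38.6 CPM in *Wt1KOΔEC* (log2 fold change -0.22 ± 0.27), and *Hsf2* had 0.43 ± 0.41. *Hsbp1*, which encodes an HSF1-binding protein, had -0.11 ± 0.16.

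Among the most abundant genes of these lists, *Dnaja2*, *Cdc37* and *Hspa9* overlapped between genotypes, and *Cct7* did not. On the log2 scale the difference was 0.08 ± 0.15 for the J-domain gene *Dnaja2*, 0.25 ± 0.17 for *Cdc37*, which brings kinases to HSP90, 0.30 ± 0.16 for *Hspa9*, the mitochondrial HSP70, and 0.20 ± 0.13 for *Cct7*. Among other genes of these lists, *Sdf2l1* and *Pdia4* of the ER had log2 fold changes of 0.81 ± 0.20 and 0.55 ± 0.14, *Trap1*, the mitochondrial HSP90, 0.27 ± 0.14, *Dnajc8* 0.36 ± 0.14, *Nudcd2* 0.39 ± 0.20 and *Cct6a* 0.41 ± 0.21. None of these passed the edgeR test. Levels were low in the small heat shock list, which leaves out *Hspb1*, *Hspb8* and *Cryab*. Means were 3.45 and 4.77 CPM for *Hspb11*, 3.14 and 2.57 CPM for *Hspb6*, and 0.669 and 0.519 CPM for *Hspb2*.

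**Figure D4:**
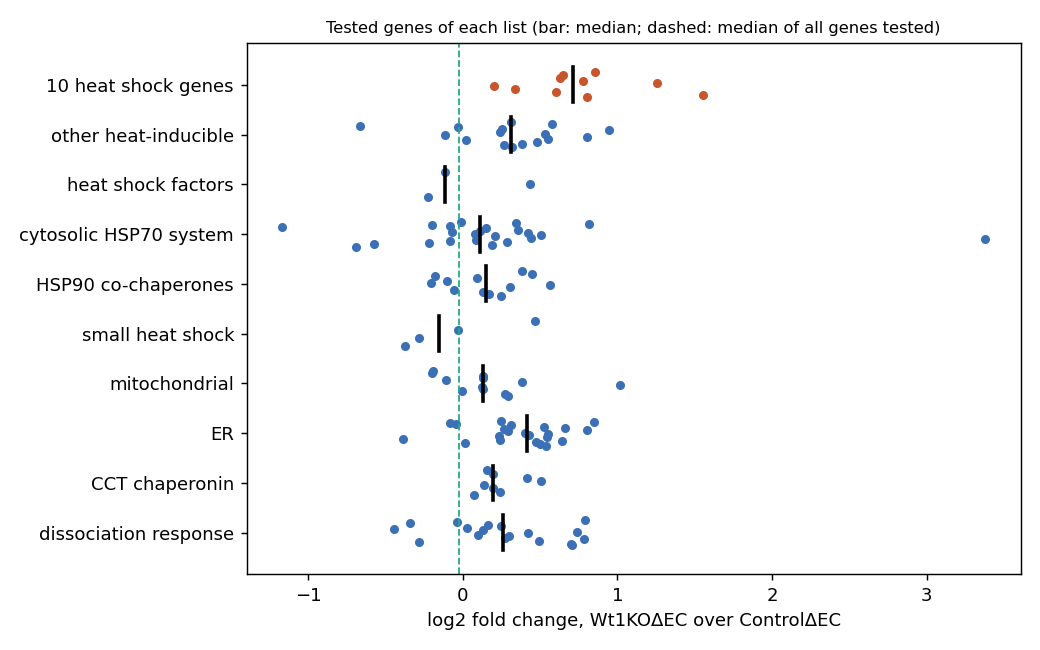
Log2 fold change, *Wt1KOΔEC* over *ControlΔEC*, of each tested gene of the 10 heat shock genes (orange), the 8 chaperone lists and the dissociation list (blue), with a bar at each median. The median is 0.71 for the 10 heat shock genes and 0.42 for the ER list. It is -0.11 for the heat shock factor list, where 3 of 6 genes were tested and the middle value is that of *Hsbp1*. The dashed line is the median of all genes, -0.03.

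Other RNAs moved with the same groups. Hearts were digested with warm collagenase before sorting, and genes known to respond to such dissociation were read alongside. Of 18, 6 were higher at an unadjusted p below 0.05 (*Fos*, *Fosb*, *Jun*, *Junb*, *Ier2* and *Socs3*) and 0 lower, beside 5.96% and 7.12% of all genes. Without overlap between genotypes, 7 were higher, against 10.3% of all genes. By that measure 1 was lower, *Nr4a1* (log2 fold change -0.34 ± 0.17). Summed CPM of the 18 was 2809 to 3890 in *ControlΔEC* and 3918 to 4348 in *Wt1KOΔEC*. *Fos* averaged 224 and 364 CPM (log2 fold change 0.70 ± 0.16, edgeR adjusted p = 0.17). Summed fibroblast markers were 678 to 982 and 1346 to 1553 CPM, with 5 of 8 higher at an unadjusted p below 0.05. Endocardial markers were 336 to 426 and 711 to 804 CPM, with 4 of 5 higher by that measure, and without *Plvap*, an EC gene in that list, 261 to 367 and 379.9 to 443 CPM. Mural markers were 363, 176 and 363 CPM against 141, 159 and 148 CPM, with 3 of 6 lower by that measure. Summed macrophage markers were 253 to 780.2 and 188 to 270.4 CPM, with 5 of 7 lower and a median log2 fold change of -1.07. Summed epicardial markers were 11.49 to 17.85 and 17.3 to 49.3 CPM, with 2 of 6 higher at an unadjusted p below 0.05, 4 of 6 higher without overlap and a median log2 fold change of 1.17. Cardiomyocyte markers were 201 to 280.2 and 165 to 359.8 CPM, with 0 of 9 tested past that measure, and *Nkx2-5* was at 0 in *ControlΔEC*. Erythroid markers were 6567 to 14340 and 5104 to 8490 CPM, with 1 of 7 higher and 2 lower. The part of the dissociation genes, the other cell types, *Rn18s* and the mitochondrial share in the heat shock values was not tested.

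The genes whose log2 CPM followed the mean pattern of the members most closely over the 6 libraries, among 8460 genes with a mean of at least 10 CPM, were *Gbp2* (Pearson r = 0.99), *Pclaf*, *Eif3m*, *Rpa2* and *Praf2*. The points share their libraries and depth, and the order is a description. *Gbp2* was 10.4, 6.61 and 14.1 CPM in *ControlΔEC* and 22.6, 21.4 and 42.0 CPM in *Wt1KOΔEC*.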

How the data were processed

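Coronary ECs (mGFP+) were FACS sorted from E15.5 hearts and libraries made with the SMARTseq2 protocol, 3 per genotype, grouped by their labels. The deposited values are expected counts per gene, which the authors made with STAR 2.7.8a and RSEM 1.3.0. The methods name GRCm39 and the submitters' notes GRCm38. Positions here are from GENCODE vM39 on GRCm39, matched by gene ID.

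Expected counts were rounded to whole numbers, and a gene entered the test where 2 or more libraries held 10 or more counts. They were tested in R 4.3.3 with edgeR 4.0.16 (TMM, quasi-likelihood F test, no covariate), with Benjamini-Hochberg adjustment over all genes tested. The study's own tool, DESeq2 (1.42.0 here), and limma-voom (limma 3.58.1) were alternatives, as were other scalings, filters, a replicate block and leaving out each library. The test was also run on simulated counts, with results not reported here. A gene that was not called is not thereby shown to be unchanged. SE is the size of the log2 fold change divided by the square root of F. p-values set the difference between genotypes against the spread between these libraries, which edgeR estimates with information shared across genes. Total counts of 26037324 to 44779020 per library set the counting precision.

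Named genes were the 10 members, up to 3 genes of each list by p and its most abundant gene, named copies at 1 CPM or more, and the 5 genes most like the members in pattern. Other genes given for a count (*Fosb*, *Jun*, *Socs3*, *Nr4a1*, *Plvap*, *Nkx2-5* and the lower-ranked genes of a list) were named after their values were seen. Some genes that this rule names are not reported here. The members and lists were chosen with earlier results of these data known. Protein identity was replaced by coding-sequence identity from GENCODE transcripts.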

Additional observations from a re-analysis of the deposited data

How the results depend on the processing

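Each of the 10 members kept a positive log2 fold change under every alternative run, and their median lay between 0.54 (without *Wt1KOΔEC* replicate 3) and 0.86 (without *Wt1KOΔEC* replicate 2). Of the alternative values for single members, 162 kept their side of the threshold and 12 passed it. edgeR called 0 members and 12 genes. The members called became 6 with DESeq2 on the genes kept, 4 with DESeq2 on all genes (chosen after seeing the data), 1 with no filter on low counts, 1 with at least 10 counts in every library, and 8 by unadjusted p with the same fold change limit. All genes called became 593, 759, 296, 113 and 1652 in the same order. The 1652 are of 16296 genes tested, and the filters change how many genes are tested, so these totals are not shares. At an unadjusted p below 0.05, 7, 7, 8 and 8 members were higher in the 2 DESeq2 and 2 filter settings. That stood against 6.59, 5.21, 4.92 and 6.75% of all genes. Called genes of the 8 chaperone lists and the dissociation list together, 0 in edgeR, became 9, 9, 4, 2 and 13. Leaving out 1 library at a time gave 2 (without *Wt1KOΔEC* replicate 3) to 37 (without *ControlΔEC* replicate 3) genes called, 0 to 1 in those lists and 0 members. Requiring 3 units in place of 2 left 3 genes in place of 6 with a heat shock element, and *Hspd1* and *Hspe1* share the same bases. The cause of these differences was not tested, beyond the tool, genes or samples each changes.

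With the replicate number as a block, 5 genes and 0 members were called, and 9 members were higher at an unadjusted p below 0.05, as were 5.62% of all genes in that fit. Deviations of same-numbered libraries correlated at 0.07, 0.004 and 0.05 across genes, and those of differently numbered libraries at -0.06 to 0.02. With 3 libraries per genotype, such values cannot decide whether the numbers pair the samples. The breeding described in the paper gives both genotypes within a litter, and pairing was not assumed in the main test.

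Depth limits these values little, since the lowest of any member was 644 counts (*Hspa1b* in *ControlΔEC* replicate 2).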

Other observations

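*Bag1*, which encodes an HSP70 nucleotide exchange factor, split within *ControlΔEC* far more than within *Wt1KOΔEC*. It was 89.6, 87.1 and 18.3 CPM in *ControlΔEC* and 29.0, 31.9 and 25.8 CPM in *Wt1KOΔEC*. Its log2 fold change was -1.17 ± 0.48 (edgeR adjusted p = 0.351), and its groups overlapped.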
